A study of Mus musculus with 2 samples.

Results

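The genes for P2ry12, P2ry13, P2ry6, Gpr34, P2rx4, P2rx7 and Entpd1 were followed through the myeloid cells of the mouse retina. They are 7 of the 31053 genes counted, were taken by their symbols as the purine receptors, the related receptor Gpr34 and the ectonucleotidase of these cells, and were all found in both libraries. Cells positive for CD11b and F4/80 had been sorted from retinas of C57BL/6j mice at postnatal day 17. One library came from control mice kept in room air (RA). The other came from mice with oxygen-induced retinopathy (OIR), in which pups spend time in high oxygen and grow abnormal retinal vessels after their return to room air. The labels name no other allele or agent in either group. Each library pooled retinas before sorting, so there was 1 sample per condition, no difference between conditions was tested, and all intervals cover counting error alone.

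The RA matrix held 1449 barcodes and 12810892 unique molecular identifiers (UMIs), and the OIR matrix 1259 barcodes and 9835402 UMIs. No barcode sequence was shared between them. After filtering, the RA library gave 1295 cells (median 9064 UMIs) and the OIR library 1179 (median 5427). Clusters were named from marker genes, so each name means cells like that type. The sort had also let through 307 RA and 232 OIR cells led by rod genes, whose levels served as a background. The P2ry12 UMIs of the RA rods lay in few cells, and how far this background measures free RNA was not tested. The 4 myeloid classes held 803 RA and 584 OIR microglia, 17 and 109 dividing cells, 89 and 140 macrophages, and 52 and 90 monocytes. All 13 microglial markers were found in the microglia of both libraries, all 12 macrophage markers in the macrophages and all 12 monocyte markers in the monocytes. A marker counts as found from 1 UMI in the summed cells, so this does not tell the classes apart. RA microglia also held 11 of the 12 macrophage and 11 of the 12 monocyte markers. The macrophages and monocytes of both libraries held all 13 microglial markers. Malat1, a nuclear RNA that is low in droplets without an intact nucleus, stood at 18393 CPM (counts per 1000000 UMIs) in RA microglia and at 6408 CPM in OIR microglia, whose median depth was 10166 and 6275 UMIs. The macrophage markers summed to 7353 CPM in RA and 6921 in OIR macrophages, beside 181 and 208 in microglia. The monocyte markers summed to 7562 CPM in RA and 5285 in OIR monocytes, beside 209 and 325 in microglia.

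Cells release ATP, ADP and UDP when they are active, stressed or broken, and myeloid cells read these nucleotides with P2 receptors on their surface. The P2Y receptors signal through G proteins, and the P2X receptors are channels that ATP opens. In brain and retina, microglia are known for P2ry12, which draws their processes toward a source of ADP and whose loss is a common sign of a microglial response. Entpd1, also called CD39, ends the signal by cutting ATP and ADP to AMP at the cell surface.

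In the RefSeq annotation of GRCm38.p6, the assembly called mm10 in the submitters' processing notes, P2ry12 (ENSMUSG00000036353) spans chr3:59216271-59262985 and P2ry13 (ENSMUSG00000036362) chr3:59207892-59210882. They lie 5389 bases apart on the minus strand, and both sit inside the interval of Med12l. P2rx7 (ENSMUSG00000029468) at chr5:122643927-122692336 and P2rx4 (ENSMUSG00000029470) at chr5:122707518-122729739 lie 15182 bases apart on the plus strand, and P2rx4 overlaps Camkk2. Gpr34 (ENSMUSG00000040229) at chrX:13622650-13640859 sits inside the interval of Cask. P2ry6 (ENSMUSG00000048779) spans chr7:100937630-100975498 and Entpd1 (ENSMUSG00000048120) chr19:40612366-40741602. Entpd1 overlaps Gm16027, Gm41846 and Gm8783 and lies 42 bases from Tctn3, and P2rx7 overlaps Mir8115. The Ensembl names are those of the count data and were joined to the RefSeq spans by gene symbol alone. All 7 are protein-coding. Whether the counting used the strand is not given in the sources used here, so reads of the overlapping genes may not have been told apart.

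The promoters of the 2 neighbouring pairs are shown because P2ry12 and P2ry13 were highest in microglia while P2rx4 and P2rx7 were highest in macrophages. Each runs 5′ to 3′ over 300 bases, from 250 before to 50 after the start it was built on, and was taken from RefSeq. For P2ry12, P2ry13 and P2rx7 that start is the start of the span given above. For P2rx4 it is not the first base of that span, chr5:122707518, but lies downstream of it. The P2ry12 window is chr3:59262936-59263235 on the minus strand, the P2ry13 window chr3:59210833-59211132 on the minus strand, the P2rx4 window chr5:122707294-122707593 on the plus strand and the first P2rx7 window chr5:122643677-122643976 on the plus strand. Capitals mark matches to 4 myeloid motifs searched on both strands.
P2ry12: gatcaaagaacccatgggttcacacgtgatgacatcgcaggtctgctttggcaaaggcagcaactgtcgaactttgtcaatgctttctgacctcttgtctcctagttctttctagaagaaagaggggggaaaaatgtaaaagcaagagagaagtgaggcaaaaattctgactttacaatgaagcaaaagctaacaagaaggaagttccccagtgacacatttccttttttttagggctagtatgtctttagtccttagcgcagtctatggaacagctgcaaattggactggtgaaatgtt
P2ry13: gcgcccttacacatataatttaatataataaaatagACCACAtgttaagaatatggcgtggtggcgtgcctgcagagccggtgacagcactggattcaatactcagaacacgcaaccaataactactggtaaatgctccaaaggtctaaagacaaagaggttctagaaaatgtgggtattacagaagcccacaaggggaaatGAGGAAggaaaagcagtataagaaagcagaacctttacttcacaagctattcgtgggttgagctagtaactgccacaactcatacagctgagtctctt
P2rx4: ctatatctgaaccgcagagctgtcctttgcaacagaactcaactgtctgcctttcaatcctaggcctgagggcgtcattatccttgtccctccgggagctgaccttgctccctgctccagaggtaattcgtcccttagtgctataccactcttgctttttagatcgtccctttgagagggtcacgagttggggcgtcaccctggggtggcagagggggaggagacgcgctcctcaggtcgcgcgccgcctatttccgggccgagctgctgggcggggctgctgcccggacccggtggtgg
P2rx7: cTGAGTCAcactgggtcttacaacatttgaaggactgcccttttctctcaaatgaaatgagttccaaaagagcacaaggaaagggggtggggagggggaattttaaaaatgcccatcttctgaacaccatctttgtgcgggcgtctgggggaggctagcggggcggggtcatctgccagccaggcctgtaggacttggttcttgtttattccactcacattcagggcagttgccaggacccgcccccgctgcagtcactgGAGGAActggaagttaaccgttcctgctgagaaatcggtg

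The motifs were GAGGAA, a core of PU.1 sites, which 28.3% of 32851 promoters of this length held, TGTGGT, a core of RUNX sites, which 16.8% held, the AP-1 motif TGANTCA, which 7.81% held, and the MEF2 core CTANNNNTAG, which 3.69% held. No 2 matches overlapped. P2ry13 held GAGGAA from base 203 and the reverse complement of TGTGGT from base 37. P2rx7 held TGANTCA from base 2 and GAGGAA from base 261. Neither P2ry12 nor P2rx4 held any of the 4. The P2rx4 window had 18 CpG dinucleotides and 60.3% GC, the P2rx7 window 8 and 53.3%, the P2ry13 window 6 and 42.3%, and the P2ry12 window 4 and 42.3%, beside a median of 7 CpG dinucleotides over all promoters. A match is a run of letters and no binding was measured. Of the 7 genes, 5 had a promoter in the table, the exceptions being P2ry6 and Gpr34.

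The 7 genes showed 3 patterns of level across the classes. P2ry12, P2ry13 and Gpr34 were highest in microglia, P2rx4 and P2rx7 were highest in macrophages, and P2ry6 and Entpd1 were within 1.5-fold in microglia and macrophages. The closeness of P2ry6 and Entpd1 did not hold under every alternative processing, as given further on. A level is the sum of a gene's UMIs in a class and library in CPM of the same cells, with the exact 95% Poisson interval in parentheses. The 3′ assay counts the end of each molecule and not its length, and the genes were compared across cells and not with each other.

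P2ry12, the ADP receptor, was counted at 1455 CPM (1428 to 1482) in RA microglia and at 883 (855 to 912) in OIR microglia. In dividing cells it was at 726 (608 to 861) in RA and 489 (450 to 531) in OIR, in macrophages at 484 (446 to 526) and 334 (306 to 364), and in monocytes at 297 (256 to 343) and 266 (233 to 302). The order of the classes was therefore the same in both libraries. Rods held 33.2 CPM in RA, from 37 UMIs, and 10.53 CPM in OIR. P2ry13, a second ADP receptor, was at 256 CPM (245 to 267) in RA microglia and 186 (173 to 199) in OIR microglia. It was at 121 (102 to 143) and 90.3 (76.0 to 107) in macrophages, 77.0 (42.1 to 129) and 98.8 (81.6 to 119) in dividing cells, and 60.0 (42.5 to 82.4) and 52.7 (38.6 to 70.2) in monocytes. Beyond the microglia and the RA macrophages, each neighbour in the order of P2ry13 overlapped the next.

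Gpr34 binds lysophosphatidylserine, a lipid, and belongs to the P2Y12-like receptors by sequence. Its level was 764 CPM (745 to 783) in RA microglia and 713 (687 to 739) in OIR microglia, then 528 (428 to 645) and 452 (414 to 492) in dividing cells, 305 (274 to 338) and 355 (326 to 386) in macrophages, and 194 (162 to 232) and 222 (192 to 256) in monocytes. As with P2ry12, microglia stood first and monocytes last. P2ry6, the UDP receptor known for its part in phagocytosis, was at 271 CPM (242 to 302) in RA macrophages and 242 (218 to 268) in OIR macrophages, beside 227 (216 to 237) and 175 (163 to 188) in microglia. It was at 116 (71.5 to 177) and 157 (135 to 182) in dividing cells and 103 (79.3 to 131) and 119 (97.3 to 144) in monocytes. The first 3 of these values, both macrophage groups and the RA microglia, overlapped from one to the next.

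P2rx4, a channel that ATP opens at low concentrations, was at 207 CPM (181 to 234) in RA macrophages and 210.1 (188 to 234) in OIR macrophages. The other 6 groups lay between 109 and 129.5 CPM, and each overlapped its neighbour. P2rx7, the channel that needs much ATP and is known for setting off the release of interleukin-1β, was at 128 CPM (108 to 150) in RA macrophages and 159 (140 to 180) in OIR macrophages. It was at 49.6 (44.9 to 54.8) and 42.7 (36.6 to 49.4) in microglia, 22.0 (6.00 to 56.4) and 38.7 (28.2 to 51.7) in dividing cells, and 19.0 (9.80 to 33.1) and 28.6 (18.5 to 42.3) in monocytes. Both channels thus had the macrophages of both libraries above every other group, with no overlap at that step.

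Entpd1 was at 186 CPM (177 to 196) in RA microglia and 118 (108 to 129) in OIR microglia. In RA macrophages it was at 143 (122 to 166), in OIR macrophages at 105 (89.6 to 122), in RA monocytes at 123 (97.4 to 154) and in OIR monocytes at 68.7 (52.4 to 88.4). Dividing cells were at 49.5 (22.6 to 94.0) in RA and 65.3 (51.4 to 81.7) in OIR, and these last 3 values overlapped. Each class other than the dividing cells held less Entpd1 in OIR than in RA.

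**Figure D1:**
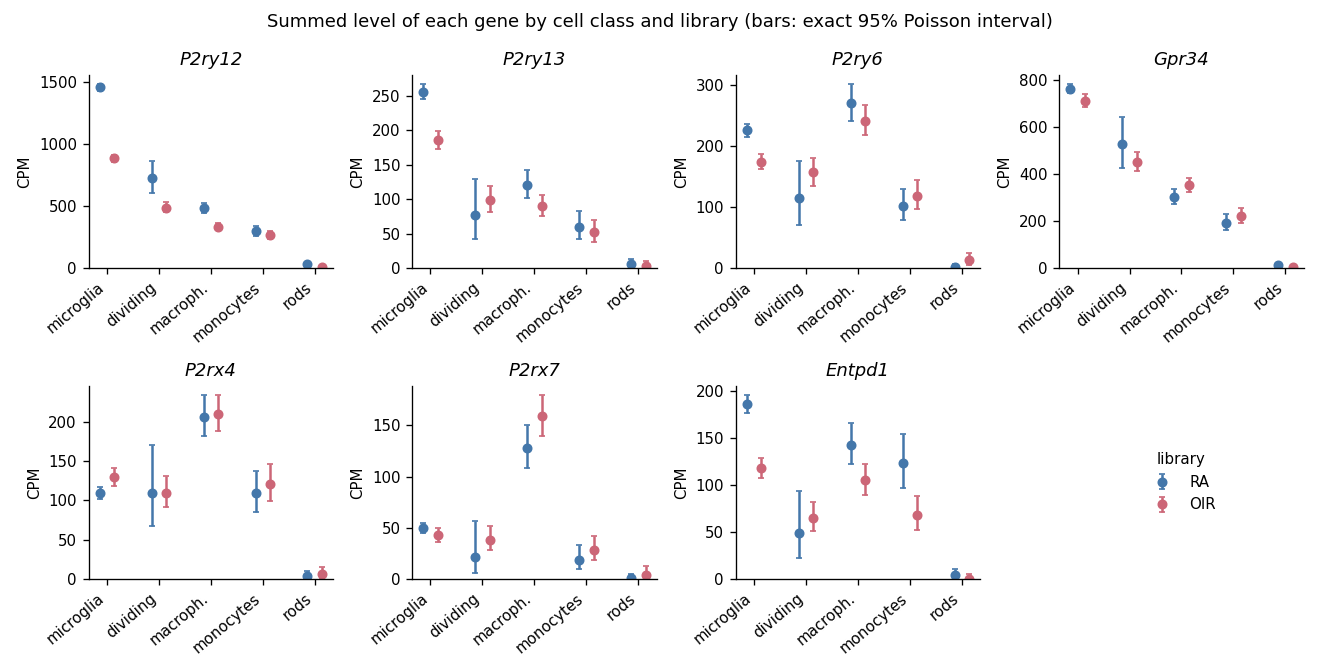
Summed level in CPM (vertical axes from 0) of each of the 7 genes in the microglia, dividing cells, macrophages, monocytes and rods of the RA library (blue) and the OIR library (red), with exact 95% Poisson intervals as bars. P2ry12 was at 1455 CPM in RA microglia and 883 in OIR microglia, while P2rx7 was highest in macrophages, at 128 and 159 CPM.

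The comparison of OIR with RA asked how nucleotide sensing differed in retinopathy. In microglia, P2ry12 and Entpd1 were lower in OIR by more than 1.5-fold, P2ry13 and P2ry6 were lower by less, and Gpr34 lay closest to the RA level. P2rx7 was lower with an interval that held 0, and P2rx4 was higher by less than 1.5-fold. The log2 ratio of OIR over RA was -0.72 for P2ry12 (exact conditional 95% interval -0.77 to -0.67), so that the OIR level was 60.7% of that in RA. Entpd1 was at 63.5% (log2 ratio -0.66, -0.81 to -0.51). P2ry13 was at 72.6% (-0.46, -0.58 to -0.34) and P2ry6 at 77.3% (-0.37, -0.50 to -0.25). The log2 ratio was -0.10 for Gpr34 (-0.16 to -0.04), -0.22 for P2rx7 (-0.48 to 0.04) and 0.24 for P2rx4 (0.09 to 0.40). Of the 7 genes, 2 were thus past 1.5-fold lower, where 16.2% of the 5759 genes at a like level were, and 0 were past 1.5-fold higher, where 18.3% were. The median of the 7 ratios was -0.37 beside 0.02 over all genes at a like level, which are those with at least 10 UMIs in both groups together and 20 CPM in 1 of them. In these pooled sums, fewer cells with a transcript and fewer transcripts per cell cannot be told apart.

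The microglial markers did not shift as one. Of 13, 4 were past 1.5-fold lower in OIR and 1 past 1.5-fold higher, with a median log2 ratio of -0.16. Cx3cr1, the fractalkine receptor, had a log2 ratio of -1.41, Siglech -0.94, Selplg -0.85 and Tmem119 -0.50. Sall1, a transcription factor of microglia, had -0.16, Trem2 0.42 and Fcrls 0.97. The ratio of P2ry12 lay among those of the first group and that of Gpr34 near that of Sall1.

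Malat1 moved with the libraries, so the ratios were taken again in the 745 RA and 379 OIR microglia with at least 0.1% of their UMIs from Malat1. There the log2 ratio was -0.62 for P2ry12, -0.51 for Entpd1, -0.39 for P2ry13, -0.29 for P2ry6, -0.04 for Gpr34, 0.27 for P2rx4 and -0.10 for P2rx7, and only P2ry12 was past 1.5-fold (12.8% of genes were past it lower). The 7 genes stood in the same order as over all microglia. Malat1 still differed between these filtered cells, at 18969 CPM in RA and 7673 CPM in OIR, so the limit did not equalise nuclear RNA. Malat1 was also higher in RA than in OIR in macrophages (17706 and 6506 CPM), monocytes (18239 and 7825.5) and dividing cells (14169 and 4627). The part of this difference in the ratios was not tested. The microglia poor in Malat1 numbered 58 in RA and 205 in OIR, with a median of 3649 and 2459 UMIs. Against the other microglia of their library they had a log2 ratio of -0.78 in RA and -0.96 in OIR for P2ry12, -1.06 and -1.52 for Entpd1, -1.42 and -0.86 for P2ry6 and -0.48 and -0.49 for Gpr34. In RA 6 of the 7 genes were past 1.5-fold lower there, beside 47.6% of all genes, and in OIR 5, beside 37.1%. The Malat1-poor cells also held 5662 CPM of the lens list in RA and 866 in OIR, beside 103 and 22.7 in the other microglia. Their macrophage list was at 1124 and 274 CPM, beside 151 and 195, and their erythroid list at 478 and 407, beside 7.39 and 7.76. The part of these lists was not tested. The part of the Malat1-poor cells in the differences between libraries was not tested.

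**Figure D2:**
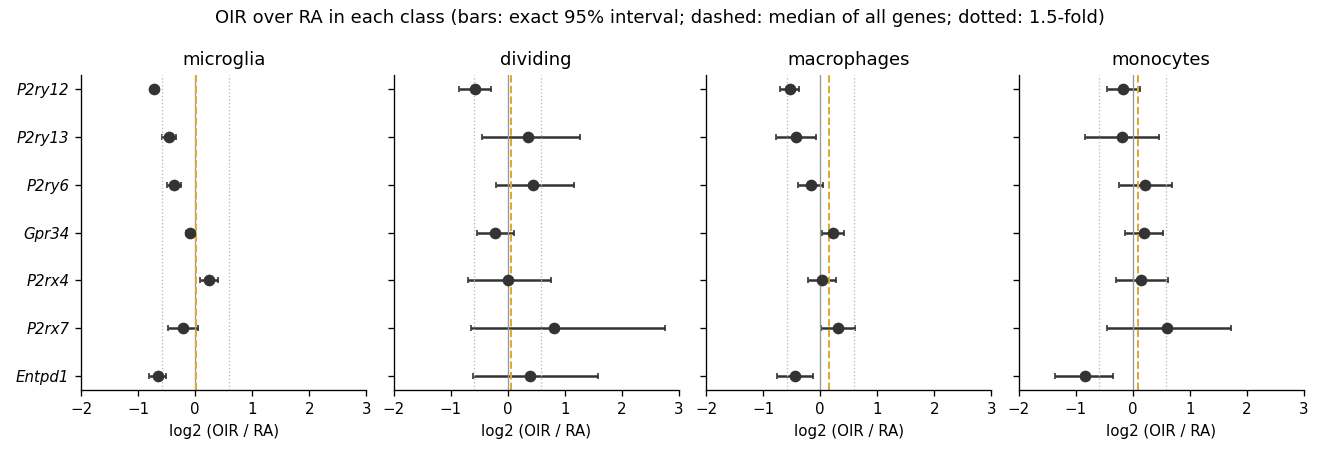
Log2 ratio of OIR over RA (horizontal axes) of each gene in the 4 classes, with exact 95% conditional intervals as bars, the median of all genes at a like level as a dashed line and 1.5-fold as dotted lines. In microglia the points run from -0.72 for P2ry12 to 0.24 for P2rx4. For each gene but P2ry12 and Gpr34 the interval is widest in the dividing cells, of which RA held 17.

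The microglia fell into 5 clusters, and their mix differed between libraries. The cluster led by Tnf and Egr3, genes of an acute response, held 48.3% of RA and 44.7% of OIR microglia. The cluster led by Rrad and Ddit3, stress genes, held 36.7% and 18.0%, that led by Sgk1 and Txnip 6.10% and 3.60%, that led by Cryba4 and Fabp5 7.85% and 22.9%, and that led by Gclm and Hmox1, genes of the oxidative stress response, 0.996% and 10.8%. The 7 genes and a list of other genes of purine signalling had been left out of the genes that formed these clusters. Over both libraries the Cryba4 cells had a median of 2454 UMIs and 724 CPM of Malat1. Ptprc, the gene of CD45, was found in 23.35% of the Cryba4 and 16.9% of the Gclm cells. In the Tnf, Rrad and Sgk1 clusters it was found in 92.45%, 93% and 80% of cells. The part of these differences in the levels was not tested.

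P2ry12 was lower in OIR within every one of the 5 clusters. It was at 1442 CPM in RA and 904 in OIR in the Tnf cluster, 1486 and 1074 in the Rrad cluster, 2011 and 1452 in the Sgk1 cluster, 896 and 687 in the Cryba4 cluster, and 325 and 63.0 in the Gclm cluster, where the counts were 14 and 15 UMIs. The Sgk1 cluster was thus the highest in both libraries and the Gclm cluster the lowest. P2ry13 followed the same extremes, with 434 CPM in RA and 411 in OIR in the Sgk1 cluster and 33.6 CPM, from 8 UMIs, in the OIR cells of the Gclm cluster. Entpd1 ran from 315 CPM in the RA cells of the Sgk1 cluster to 16.8 CPM, from 4 UMIs, in the OIR cells of the Gclm cluster. In the OIR cells of the Sgk1 cluster, however, Entpd1 was at 96.8 CPM (41.8 to 191) from 8 UMIs, beside 123 in the Tnf and 155 in the Rrad cluster of OIR, so its order there was not that of P2ry12.

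P2rx4 was the one gene that was not lower in the cells led by Gclm and Hmox1 than in the Tnf cluster of OIR. In the 63 OIR cells of the Gclm cluster it was at 151 CPM (106 to 209) beside 112 (99.3 to 126), and the intervals overlapped. Gpr34 was at 277 CPM (214 to 353) beside 699, P2ry6 at 79.8 (48.1 to 125) beside 178 (162 to 195), and P2rx7, from 6 UMIs, at 25.2 (9.25 to 54.9) beside 48.9 (40.8 to 58.2), again with overlap. These 63 cells had a median of 2458 UMIs and 21.01 CPM of Malat1, whose part in these levels was not tested. The Sgk1 cluster stood at the other end, with 27510 CPM of Malat1 over both libraries.

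Within the 2 largest clusters the ratios of OIR over RA were close to each other for some genes and apart for others. In the Tnf cluster, with 388 RA and 261 OIR cells, the log2 ratio was -0.67 for P2ry12 (-0.74 to -0.61), -0.62 for Entpd1, -0.45 for P2ry13, -0.12 for P2ry6, -0.04 for Gpr34, 0.19 for P2rx4 and 0.25 for P2rx7. In the Rrad cluster, with 295 and 105 cells, it was -0.47 for P2ry12 (-0.57 to -0.37), -0.21 for Entpd1 (-0.49 to 0.06), -0.19 for P2ry13, -0.42 for P2ry6, 0.11 for Gpr34, 0.60 for P2rx4 (0.33 to 0.86) and -0.67 for P2rx7 (-1.25 to -0.14). P2ry12 and Entpd1 were past 1.5-fold lower in the Tnf cluster, beside 12.6% of all genes. In the Rrad cluster P2rx7 was past it lower and P2rx4 past it higher, beside 13.7% and 16.6%. The difference between the clusters was not tested.

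**Figure D3:**
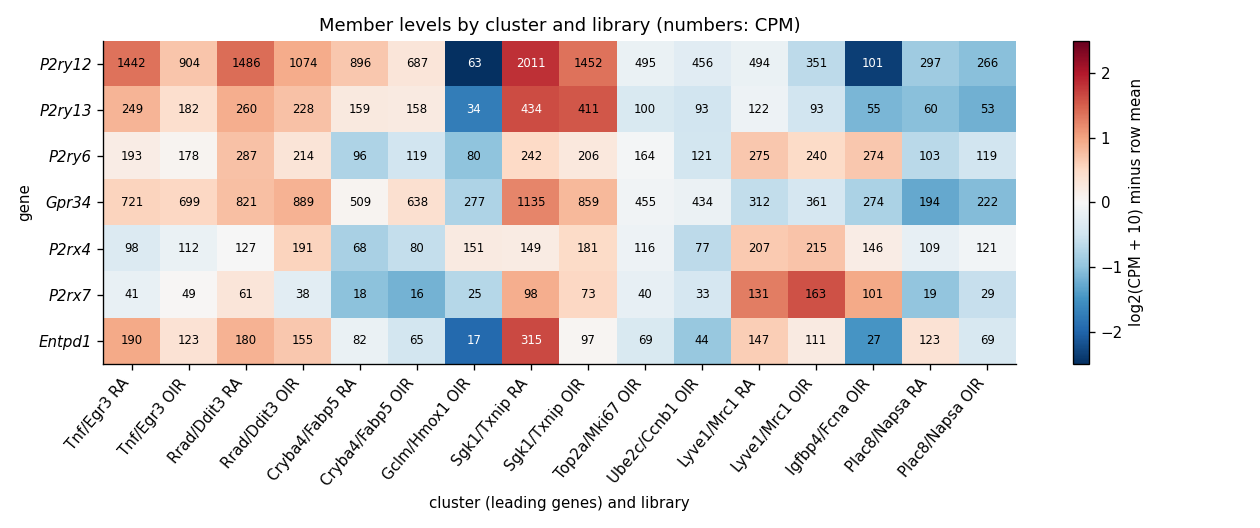
Level of each gene (rows) in each cluster and library with at least 20 cells (columns, named by 2 leading genes), with the CPM printed and the colour giving log2(CPM + 10) minus the mean of the row. The Sgk1/Txnip cells of RA hold the highest P2ry12 level, 2011 CPM, and the Gclm/Hmox1 cells of OIR hold 63.0 CPM.

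Dividing cells, which were mostly from OIR, had lower P2ry12, P2ry13, Gpr34 and Entpd1 than the other microglia of their library. In OIR the log2 ratio of dividing cells over microglia was -0.85 for P2ry12 (-0.98 to -0.73), -0.91 for P2ry13 (-1.21 to -0.63), -0.86 for Entpd1 (-1.22 to -0.51) and -0.66 for Gpr34 (-0.79 to -0.52). P2ry6 (-0.15), P2rx4 (-0.24) and P2rx7 (-0.14) had intervals that held 0. Hence 4 of the 7 genes were past 1.5-fold lower, where 6.42% of 6246 genes were, and the median was -0.66 beside 0.14 over all genes. The deeper of the 2 dividing clusters, led by Top2a and Mki67, held 495 CPM of P2ry12 in OIR and the shallower, led by Ube2c and Ccnb1, 456 CPM. In RA, where only 17 cells divided, 5 genes were past 1.5-fold lower (17.3% of all genes were), with P2ry12 at 49.9% and Entpd1 at 26.6% of the microglial level. Those 17 cells also held 6878 CPM of the neutrophil list, from 4 of its 6 markers with Retnlg and Ly6g at 0, and 1640 CPM of the monocyte list, whose part was not tested. The dividing cells of OIR held 70.5 and 378 CPM of these lists and 15713 CPM of the microglial list. They held 968 CPM of the macrophage list, from 11 of its 12 markers with Cd209f at 0, beside 208 in OIR microglia. Their erythroid list, with all 5 markers found, was at 1288 CPM beside 73.9 in OIR microglia, and it lay in the Ube2c cluster, at 8231 CPM, with 1.02 CPM in the Top2a cluster. Without the Ube2c cluster the median ratio of the 7 genes in OIR was -0.65, and the part of the macrophage list was not tested.

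In dividing cells the OIR and RA levels differed beyond counting error for P2ry12 alone, with a log2 ratio of -0.57 (-0.85 to -0.29). The other 6 intervals held 0, and 1 gene, P2rx7 at 4 UMIs in RA, was past 1.5-fold higher, where 26.4% of genes were.

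In macrophages P2ry12, P2ry13 and Entpd1 were also lower in OIR and Gpr34 and P2rx7 higher, all by less than 1.5-fold, but the direction of P2rx7 turned in the macrophages without microglial markers described further on. The log2 ratio of OIR over RA was -0.54 for P2ry12 (-0.71 to -0.36), -0.42 for P2ry13 (-0.77 to -0.08), -0.45 for Entpd1 (-0.77 to -0.13), -0.16 for P2ry6 (-0.38 to 0.06), 0.02 for P2rx4 (-0.22 to 0.27), 0.22 for Gpr34 (0.02 to 0.41) and 0.31 for P2rx7 (0.02 to 0.61). Hence 0 genes were past 1.5-fold, where 14.4% of 6188 genes were past it lower and 25.4% higher, and the median was -0.16 beside 0.16 over all genes. In monocytes Entpd1 was past 1.5-fold lower, with a log2 ratio of -0.84 (-1.35 to -0.34), and P2rx7 past it higher with an interval that held 0 (0.59, -0.45 to 1.72), where 15.7% and 21.4% of genes were. The other 5 monocyte ratios lay between -0.19 and 0.21, each with 0 in its interval. Those of P2ry12, P2ry13 and Gpr34 were lower in the monocytes with microglial markers described further on.

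Macrophages differed from microglia in one direction for P2ry12, P2ry13 and Gpr34 and in the other for both channels. The log2 ratio of macrophages over microglia was -1.59 in RA and -1.40 in OIR for P2ry12, -1.08 and -1.04 for P2ry13, and -1.33 and -1.01 for Gpr34. It was 0.92 in RA (0.71 to 1.12) and 0.70 in OIR (0.50 to 0.90) for P2rx4 and 1.37 (1.09 to 1.64) and 1.90 (1.61 to 2.18) for P2rx7. Hence in each library 3 genes were past 1.5-fold lower and 2 higher. All genes gave 13.6% lower and 14.7% higher in RA, and 8.93% and 16.3% in OIR. P2ry6 (0.26 and 0.47) and Entpd1 (-0.38 and -0.17) stayed within 1.5-fold. Under alternative processing, however, Entpd1 reached -0.60 in RA and -0.61 in OIR, and P2ry6 reached 0.84 in OIR, each past 1.5-fold. Most macrophages lay in the cluster led by Lyve1 and Mrc1, and the smaller cluster led by Igfbp4 and Fcna had 121 CPM of Malat1, a median of 2392 UMIs and, in OIR, 100.5 CPM of P2ry12 and 274 CPM of P2ry6.

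The macrophages also held 9769 CPM of the microglial list in RA and 9870 in OIR, beside 21322 and 21184 in microglia, so the levels were split by whether a cell held a UMI of Tmem119, Sall1 or Siglech. The 31 RA and 76 OIR macrophages without one had a median of 6661 and 4668 UMIs, beside 13452 and 13628 in the 58 and 64 with one. In those without, P2ry12 was at 198 CPM (144 to 265) in RA and 117 (90.1 to 150.03) in OIR, beside 551 and 447 in those with. Gpr34 was at 157 and 210.3 beside 339 and 431. P2rx7 was at 256 (194 to 332) and 192 (156 to 233) beside 98.1 and 142. P2rx4 was at 211 and 257 beside 206 and 186, and P2ry6 at 292 and 253 beside 266 and 236. Entpd1 was at 108 and 80.0 beside 151 and 118. Without the UMI its log2 ratio over microglia was -0.79 in RA (-1.44 to -0.21), past 1.5-fold lower, and -0.56 in OIR (-1.05 to -0.11). The macrophages with no such UMI therefore had the lower P2ry12 and Gpr34 and the higher P2rx7 of the pair in both libraries. The log2 ratio of OIR over RA of P2rx7 was -0.42 (-0.90 to 0.08) in the cells without the UMI and 0.53 (0.14 to 0.92) in those with it, so its direction turned with the split. That of P2ry12 was -0.75 (-1.33 to -0.16) and -0.30 (-0.48 to -0.12), and that of Gpr34 was 0.42 (-0.14 to 1.01) and 0.34 (0.13 to 0.56). The platelet list moved with this split, at 5599.8 CPM in RA and 2122 CPM in OIR without the UMI and 2612 and 1434 CPM with it, and its part was not tested. Since Pf4 stands in that list and marks macrophages too, the list is not particular to platelets. Without the UMI, 2 of the 6 platelet markers were found in RA, with Ppbp, Gp9, Itga2b and Gp1bb at 0. In OIR also 2 were found, with Gp9, Itga2b, Gp1bb and Treml1 at 0. With the UMI, 5 were found in RA and 6 in OIR.

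**Figure D4:**
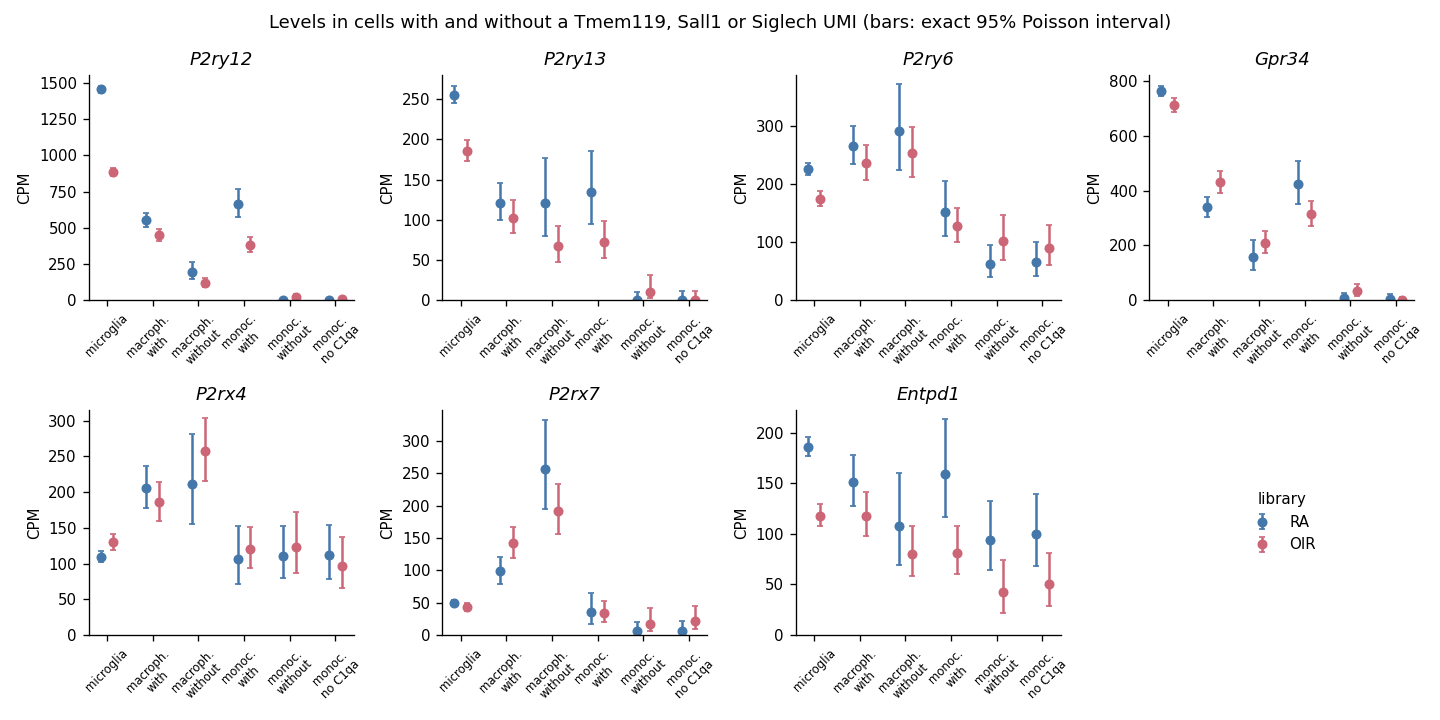
Level in CPM (vertical axes from 0) of each gene in microglia and in macrophages and monocytes with and without a UMI of Tmem119, Sall1 or Siglech, for RA (blue) and OIR (red), with exact 95% Poisson intervals. P2ry12 in monocytes without such a UMI was at 0 CPM in RA and 21.2 CPM in OIR, while P2rx4 stayed at 111 and 124 CPM.

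Monocytes had the lowest P2ry12 and Gpr34 levels of the 4 classes and, with the main processing, a P2rx4 level like that of microglia. The log2 ratio of monocytes over microglia was -2.29 in RA and -1.73 in OIR for P2ry12, -2.09 and -1.82 for P2ry13, -1.97 and -1.68 for Gpr34, -1.14 and -0.56 for P2ry6, -1.39 and -0.58 for P2rx7, and -0.60 and -0.78 for Entpd1. For P2rx4 it was -0.01 (-0.38 to 0.35) and -0.09 (-0.41 to 0.21). Over the 15 alternatives to the processing, the P2rx4 ratio ran from -0.17 to 0.19 in RA. In OIR it ran from -0.82, past 1.5-fold lower, to -0.02. In RA 6 of the 7 genes were past 1.5-fold lower, where 20% of genes were, and in OIR 4, where 13.2% were. None was past it higher, where 29.2% and 27.1% of genes were.

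The P2ry12 UMIs of the monocytes lay in cells with microglial transcripts. The class held 5194 CPM of the microglial list in RA and 8145 in OIR. Of its cells, 14 in RA and 42 in OIR held a UMI of Tmem119, Sall1 or Siglech, with a median of 21253 and 12193 UMIs, beside 7597 and 4823 in the 38 and 48 without. Those with the UMI held all 188 P2ry12 UMIs of RA monocytes and 226 of the 232 of OIR monocytes, or 666 and 383 CPM. In the 38 RA cells without it P2ry12 and P2ry13 had 0 UMIs, and the floor of 3 UMIs that stands for 0 is 8.55 CPM there. In the 48 OIR cells without it P2ry12 was at 21.2 CPM from 6 UMIs. Gpr34 was at 8.55 and 31.8 CPM without and 425 and 313 with. In the cells with the UMI the log2 ratio of OIR over RA was -0.80 (-1.09 to -0.51) for P2ry12 and -0.89 (-1.55 to -0.22) for P2ry13. It was -0.44 (-0.78 to -0.10) for Gpr34 and -0.97 (-1.59 to -0.35) for Entpd1. The intervals of P2ry6, P2rx4 and P2rx7 held 0 there. The part of the share of such cells in the ratios of the class was not tested.

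P2rx4, P2ry6 and Entpd1 remained in the monocytes without microglial markers. P2rx4 was at 111 CPM (79.1 to 152) in RA and 124 (86.0 to 172) in OIR, P2ry6 at 62.7 (39.3 to 94.9) and 102 (68.6 to 147), and Entpd1 at 94.1 (64.8 to 132) and 42.4 (21.9 to 74.0). A split by C1qa, a complement gene of microglia and macrophages, gave like levels in the 35 RA and 48 OIR monocytes without a C1qa UMI. There P2ry12 had 0 and 2 UMIs, P2ry13 0 and 0, Gpr34 2 and 0, while P2rx4 was at 111.5 and 97.0 CPM, P2ry6 at 66.3 and 90.7 and Entpd1 at 99.5 and 50.04 CPM. Ccr2, the chemokine receptor of monocytes, stood at 265 and 582 CPM in these cells. Those of RA held 9798 CPM of the monocyte list and 3455 CPM of the neutrophil list. The whole monocyte class held 1877 CPM of the neutrophil list in RA and 462 in OIR. Monocytes without a microglial marker UMI held 348 CPM of the dendritic cell list in RA and 568 in OIR, and 0 and 307 CPM of the T and NK cell list. The part of these lists was not tested. Whether the cells with microglial transcripts were doublets was not tested beyond the caller, which marked 4 RA and 2 OIR barcodes in all.

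The shares of cells with a UMI were compared at a depth of 2000 UMIs, to which each cell was thinned, and 32 RA and 86 OIR microglia were too shallow for it. P2ry12 was then found in 90.4% of RA microglia (88.1% to 92.4%, exact binomial) and 66.9% of OIR microglia (62.5% to 71.0%), and without thinning in 96.0% and 76.9%. Rods, at the same depth, gave 0.746% of 134 cells in RA and 2.56% of 78 cells in OIR. The other 173 and 154 rods were too shallow, and all rods together had a median of 1808 and 1272 UMIs before thinning. In microglia the share was lower in OIR for P2ry13 (38.7% and 29.1%), P2ry6 (33.2% and 26.3%), Gpr34 (74.2% and 66.3%) and Entpd1 (31.5% and 21.3%). For P2rx4 it was higher, 16.1% in RA (13.6% to 18.9%) and 23.3% in OIR (19.6% to 27.3%), though without thinning it was 56.3% and 47.3%. P2rx7 was found in 8.30% and 6.43% of microglia, with overlapping intervals, and in 28.2% and 22.0% of macrophages.

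Single cells held several of the genes at once. After thinning, the median number of the 7 genes found was 3 in RA and 2 in OIR microglia, 2 in the macrophages of both libraries, and 0 in RA and 1 in OIR monocytes. Cells with none made up 0.908% of RA and 5.02% of OIR microglia, and 51.0% and 37.6% of monocytes. Cells with 5 or more made up 8.43% and 4.82% of microglia. P2ry12 and Gpr34 were not at 0 in the same thinned cells throughout. A cell can miss either gene at this depth through sampling alone, and the share expected from that was not computed. Of the 165 OIR microglia without a P2ry12 UMI at this depth, 54.5% held a Gpr34 UMI, beside 72.1% of the 333 with one. In RA the shares were 66.2% of 74 and 75.04% of 697 cells.

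**Figure D5:**
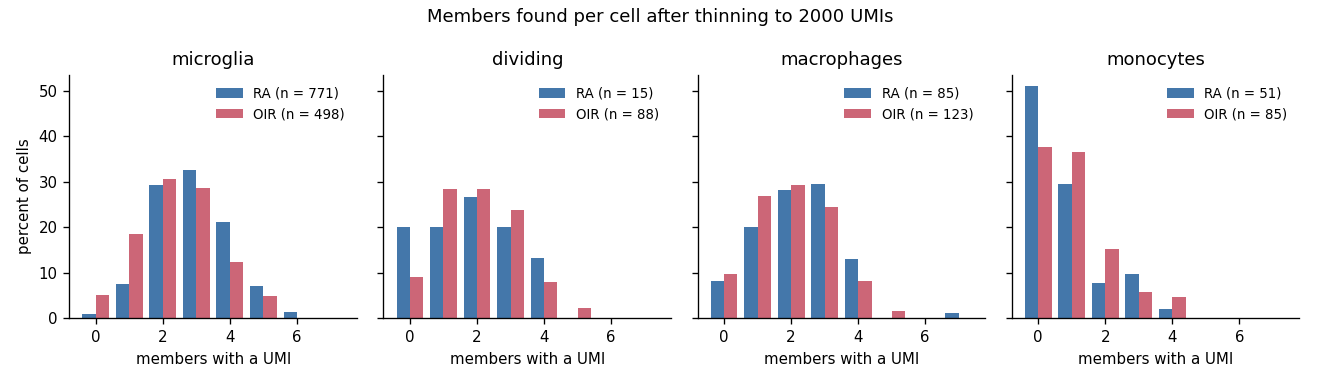
Percent of cells (vertical axis from 0) by the number of the 7 genes with a UMI after thinning to 2000 UMIs, for each class in RA (blue) and OIR (red). The RA microglia peak at 3 genes and the RA monocytes at 0, where 51.0% of them lie.

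Around these receptors stood a list of 47 other genes of purine signalling. In microglia, 23 of them had at least 10 UMIs in a library, 11 had 1 to 9, and 13 had 0 in both. The floor of 3 UMIs that stands for 0 is 0.377 CPM in RA and 0.719 CPM in OIR microglia. Among those 13 were P2ry1 and P2ry4, receptors for ADP and UTP, and Nt5e, or CD73, which turns AMP into adenosine. Of the 47 genes, 9 were among the 5759 at a like level in microglia, and 0 of these were past 1.5-fold in either direction between OIR and RA, with a median log2 ratio of 0.17 beside 0.02 over all genes.

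The partners of the receptors were mostly close between libraries. Gnai2, a G protein subunit through which P2ry12 signals, was at 948 CPM in RA and 1065 in OIR microglia (log2 ratio 0.17, 0.12 to 0.22). Kcnk13, the potassium channel THIK-1, was at 76.3 and 94.0 (0.30, 0.11 to 0.49). Abhd12, which breaks down lysophosphatidylserine, the ligand of Gpr34, was at 545 and 719 CPM (0.40, 0.33 to 0.47), and Abhd16a, which makes it, at 46.2 and 49.9 (0.11). The genes in whose intervals P2ry12 and Gpr34 lie were low, with Med12l at 17.5 and 13.7 CPM (-0.35, -0.82 to 0.10) and Cask at 22.6 and 15.8 (-0.51, -0.94 to -0.10). Camkk2, which overlaps P2rx4, was at 47.7 and 37.4 CPM in microglia and at 141 and 95.01 CPM in monocytes.

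Genes that handle adenosine went both ways. Slc29a3, a nucleoside transporter of lysosomes, was at 239 CPM in RA and 169 in OIR microglia (log2 ratio -0.50, -0.63 to -0.38), while Slc29a1, the transporter of the cell surface, was at 77.5 and 77.2 (-0.01). Pnp, which splits inosine and guanosine, was at 318 and 378 (0.25, 0.16 to 0.34). Adk, adenosine kinase, was at 5.65 and 18.2 CPM, from 45 and 76 UMIs (1.69, 1.14 to 2.25), and Ada, adenosine deaminase, had 7 and 17 UMIs (2.21, 0.87 to 3.72). Of the adenosine receptors, Adora3 was at 45.1 and 51.8 CPM (0.20, -0.05 to 0.45) and Adora1 at 5.03 and 10.6 (1.07, 0.42 to 1.73). The low counts of Adk, Ada and Adora1 kept them out of those 9.

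The remaining genes of the list were at or under 20 CPM in microglia. P2rx1, another ATP channel, had a log2 ratio of -0.11, and P2ry10b, a receptor for lysophosphatidylserine, -0.18. Entpd7 (0.45), Entpd5 (0.70), Entpd6 (-0.65), Enpp1 (-0.07), Panx1, a channel that releases ATP (0.24), Slc17a9, the vesicular nucleotide transporter (-0.48), P2ry2 (1.17) and Slc29a2 (-0.99) all had 0 in their intervals.

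In macrophages 5 of the 13 genes of the list at a like level were past 1.5-fold higher in OIR, where 25.4% of all genes were, and 1 was past it lower, where 14.4% were. The median of the 13 log2 ratios was 0.50 beside 0.16 over all genes. Kcnk13 (0.75, 0.23 to 1.29), Pnp (0.63, 0.45 to 0.80) and Adk (1.77, 0.76 to 2.92) were among the 5 and P2ry10b (-0.67, -1.32 to -0.03) was the 1. Against microglia, macrophages had less Adora3, with log2 ratios of -1.83 in RA and -1.25 in OIR, and less Kcnk13, at 38.1 beside 76.3 CPM in RA and 64.1 beside 94.0 CPM in OIR. Cd38, an enzyme that consumes NAD and is named here after its values were seen, was at 169 and 239 CPM in macrophages from 199 and 373 UMIs, and at 3 and 4 UMIs in microglia. In the dividing cells of OIR, Slc29a1 (1.27, 1.01 to 1.52) and Adk (1.37, 0.85 to 1.89) were higher than in the other microglia.

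The patterns of the 7 genes were compared with those of 5523 genes over the 16 groups of cluster and library with at least 20 cells, by Pearson's r of log2(CPM + 10). The groups share their libraries, so r is a description. P2ry12 was most like Slc2a5 (r = 0.99), a fructose transporter, Siglech (0.97) and Tmem119 (0.97), which are all microglial markers. P2ry13 was most like Tpbgl (0.96), Plxdc2 (0.95) and P2ry12 itself (0.95). Gpr34 was most like Lpcat2 (0.94) and Ly86 (0.93), and Entpd1 like B4galt1, Cx3cr1 and Abca9 (0.95 each). P2ry6 was most like Scamp5 (0.95), Atp6v0a1 (0.93) and Tln2 (0.91), P2rx7 like Rgl1 (0.93), Rab11fip5 (0.89) and Sbf2 (0.88), and P2rx4 like Tmem140 (0.89), Atp6v1h (0.86) and Baiap2 (0.83).

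Among the 7 genes themselves, r was 0.95 between the neighbours P2ry12 and P2ry13, 0.93 between P2ry13 and Gpr34, and 0.74 between the neighbours P2rx4 and P2rx7. P2ry6 was closer to P2rx7 (0.85) than to P2ry12 (0.38), and P2ry12 and P2rx4 had -0.11. Over the same groups r with Malat1 was 0.89 for Entpd1, 0.71 for P2ry12 and 0.35 for Gpr34, and the part of nuclear RNA in these patterns was not tested.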

How the data were processed

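The authors deposited raw UMI counts per gene and cell for 1 RA and 1 OIR library, made with Cell Ranger (3.1.0 in the file headers) from 10x Genomics 3′ libraries and mapped to mm10 per the submitters' processing notes. Nothing had been normalized. The values used here start from these counts.

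Cells with over 20% mitochondrial UMIs and the 2% of cells with most genes in each library were left out. Seurat 5.3.0 in R 4.3.3 integrated the libraries on 3000 anchor genes, less the 7 genes and the purine list, with 30 dimensions and k of 20. The cells of every cluster with Ptprc UMIs in 10% or more of its cells were reclustered at a resolution of 0.7, the lowest to give 11 clusters. The clusters were named from 22 marker lists, by a rule set after they were seen. Clusters with no other name were called microglia if their microglial markers summed to at least 10 times the macrophage and the monocyte markers. Of these, only the cluster led by Cryba4 and Fabp5 had a microglial marker among its 10 leading genes. Scrublet, in scanpy 1.11.5, called doublets, which were kept. Sums, intervals and thinning to 2000 UMIs used scipy 1.17.1, pandas 2.3.3 and numpy 2.4.6 under Python 3.11.15, matplotlib 3.10.9 drew the plots, and the seed was 1. The interval code was tested on simulated data. With 1 pooled library per condition no test was possible, and a floor of 3 UMIs stands for a count of 0.

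Besides the 7 genes, genes of the purine list with at least 10 UMIs in the microglia of a library and the 3 genes most like each of the 7, among those at 50 CPM or more in a group, were named, except 1 that is not reported here. The members and lists were chosen with earlier results of these data known. Alternatives covered clustering, filters, scaling, depth, nuclear RNA and subtraction of the rod level. Those by single cluster and by marker UMI were chosen after seeing the data.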

Additional observations from a re-analysis of the deposited data

Results flagged for a closer look

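Gpr34 had a log2 ratio of OIR over RA of -0.10 in microglia and 0.22 in macrophages, which caught attention because the classes moved opposite ways and both intervals lay on 1 side of 0. In macrophages, however, the median over all genes was 0.16, which lies within the interval of Gpr34 (0.02 to 0.41). In the microglia with at least 0.1% of their UMIs from Malat1 its ratio was -0.04, with an interval that held 0 (-0.11 to 0.02). The difference between the classes was not tested.

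A small cluster of 8 RA and 6 OIR cells, led by interferon response genes such as Ifit2 and Rsad2 and left out of the 4 classes, held most of the 7 genes above the rod background. In RA its levels were 1003 CPM for P2ry12, 139.6 for P2ry13, 292 for P2ry6, 508 for Gpr34, 190.4 for P2rx4 and 203 for Entpd1. In OIR they were 716 CPM for P2ry12, 183 for P2ry13, 199.9 for P2ry6 and 433 for Gpr34. The others rested on few UMIs, with P2rx7 at 4 UMIs in RA and 0 in OIR, and P2rx4 and Entpd1 at 5 UMIs each in OIR. All 13 microglial markers were found in these cells in both libraries. The microglial list was at 16155 CPM in RA and 19145 in OIR, and the macrophage list at 88.8 and 133 CPM.

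Rods, which lay outside the myeloid classes, held 33.2 CPM of P2ry12 and 14.3 CPM of Gpr34 in RA and 13.5 CPM of P2ry6 in OIR. The whole interval of each lay above the floor of 3 UMIs. P2ry13, P2rx4 and Entpd1 in RA and P2ry12 and P2rx4 in OIR were above that floor too, at 4.48 to 10.53 CPM, with intervals that held it. The 37 P2ry12 UMIs of RA lay in 5 of the 307 rods, and their source was not tested.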

How the results depend on the processing

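No paired analysis was possible because each condition had 1 library, and for the same reason no replicate could be left out. Over 15 alternatives, 575 of 630 values of 42 results moved by less than their counting interval, 55 moved by more, and 621 kept their sign. Over the 7 alternatives chosen after seeing the data, which leave out clusters or cells with marker UMIs, 37 of 83 values moved by less, 45 moved by more, 1 reversed, and 78 kept their sign. No microglial cluster was led by a rod gene, so leaving such clusters out changed nothing and gave no value. In microglia the log2 ratio of OIR over RA of P2ry12 was -0.64 with a Ptprc limit of 25%, -0.78 as a mean over cells, -0.81 without ribosomal and mitochondrial genes in the total, -0.78 in thinned cells and -0.62 in cells with Malat1. That of P2ry6 was -0.54 both as a mean over cells and in thinned cells, that of Gpr34 -0.19 without ribosomal and mitochondrial genes and -0.22 in thinned cells, and that of P2rx4 0.57 in thinned cells. In the Rrad cluster alone the ratio was -0.47 for P2ry12, -0.19 for P2ry13, 0.11 for Gpr34, whose sign turned, 0.60 for P2rx4, -0.67 for P2rx7 and -0.21 for Entpd1. In the Tnf cluster alone it was -0.12 for P2ry6 and 0.25 for P2rx7.

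The median over the 7 genes of OIR over RA was -0.42 in macrophages without a microglial marker UMI, beside -0.16 in the main analysis. In monocytes it was -0.38 when the cells with most genes were kept, beside 0.15 in the main analysis, so its sign turned. The median of dividing cells over microglia in OIR was -0.48 without anchor genes over 2-fold apart, -0.80 centred on all genes and -0.47 in thinned cells. For macrophages over microglia it was -0.79 in RA and -0.56 in OIR in cells without a marker UMI, and -0.61 in OIR in thinned cells. For monocytes over microglia in RA it was -0.50 with the cells with most genes kept, -3.12 without a marker UMI and -3.04 without C1qa, and in OIR -1.88 in thinned cells, -1.48 without a marker UMI and -1.24 without C1qa. The causes were not tested.

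Median ratios of all genes were 0.16 in macrophages for OIR over RA, 0.14 for dividing cells over microglia, and 0.14 in RA and 0.18 in OIR for monocytes over microglia, and ratios there are to be read against them. P2rx7, at 49.6 CPM in RA microglia, had an interval of 44.9 to 54.8, and Entpd1, at 49.5 CPM in the 17 dividing RA cells, one of 22.6 to 94.0.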
